A study of Mus musculus with 12 samples.

Results

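The comparison described here is the change in ribosome footprints of R1 mouse embryonic stem cells after small interfering RNA (siRNA) knockdown of Krr1. Its members were all 6 libraries of the footprint count table, 3 from control transfections and 3 from Krr1 knockdown, of 12 libraries in the series; the other 6 are RNA libraries made from the same lysates. R1 is an established embryonic stem cell line, grown here on gelatin without feeder cells in medium with serum and leukaemia inhibitory factor (LIF). All cells were transfected, and lysates were made 48 h later. The control libraries are named siGFP, siNC and Lipo, and the labels describe them as 3 different control siRNAs, although the name Lipo states no siRNA. The knockdown libraries received 3 different siRNAs against Krr1 and carry the letters A, C and D. No genetic change to the cells is named in the labels. Where values are given for single libraries, the order is always siGFP, siNC and Lipo for the controls and siKrr1 A, C and D for the knockdown.

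Ribosome profiling sequences the short pieces of mRNA that a translating ribosome shields from RNase, so the number of footprints on a gene reflects both how much of its mRNA is present and how densely ribosomes occupy it. Krr1 is a KH-domain protein of the small-subunit processome, the nucleolar assembly that processes the ribosomal RNA precursor and builds the small ribosomal subunit. Defects in ribosome assembly are known to stabilise p53 in many cell types, and mouse embryonic stem cells depend on a high rate of protein synthesis while they are growing in an undifferentiated state.

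The footprint libraries held between 21615934 and 28911254 counts on gene entries, which were 36.6% to 42.4% of the uniquely aligned reads. Levels are given as CPM, a gene's count scaled to the effective library size, which is the library total times a scaling factor of 0.988 to 1.02. A CPM is thus close to a share of the footprints in a library, and the amount of translation per cell was not measured. Over the 6605 genes that averaged 20 CPM or more, the root-mean-square log2 distance was 0.0971 to 0.130 between controls, 0.182 to 0.211 between knockdown libraries, and 0.177 to 0.286 across the groups. siKrr1 C was the knockdown library nearest to the controls, at 0.177 to 0.194 from them. An entry for the ribosomal RNA precursor, Rn45s, which is not a coding sequence, took 5.84% to 6.45% of the counts in controls and 4.36% to 5.07% after knockdown. The labels do not say that the libraries of a group came from separate cultures, so the p-values measure only the spread between these 3 and 3 libraries.

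Krr1 itself (chromosome 10, 111972695 to 111988430, mm10) was at 165, 158 and 171 CPM in the controls and 31.1, 61.6 and 51.7 CPM after knockdown in footprints. The knockdown libraries all lay below the controls, and siKrr1 A, with 18.9% of the control mean, was lower than siKrr1 D (31.4%) and siKrr1 C (37.5%). The log2 fold change was -1.77 ± 0.18 (SE), with an edgeR adjusted p of 0.000819, and the call held when any 1 library was left out.

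Krr1 knockdown changed the footprints of a minority of genes, in both directions, and most changes were under 2-fold. Of 13287 genes tested, 450 rose (3.39%) and 356 fell (2.68%), or 6.07% in either direction, by edgeR's quasi-likelihood test at an adjusted p below 0.05. Values after ± are standard errors of the log2 fold change over 3 libraries a group. Only 84 of the genes that rose and 46 of those that fell changed more than 2-fold. The median log2 fold change was 0.60 among genes that rose, -0.46 among those that fell, and 0.0067 over all tested genes. The 3 controls and the 3 knockdown libraries did not overlap in CPM for 804 of the 806 called genes, the exceptions being Fam83h and Grhl3, and for 27.9% of all tested genes. Scaling by library totals alone gave 579 rises and 285 falls, so that 67.0% of the calls were rises against 55.8% in the fit above.

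The number of calls depended on the libraries included. Without siGFP, siNC or Lipo, the number of rises was 130, 106 and 67, and the number of falls was 116, 97 and 64. Without siKrr1 A, C or D, there were 384, 791 and 293 rises and 359, 546 and 256 falls. Of the 806 called genes, 123 were called in all 6 of these fits, 63 of them higher and 60 lower, and no called gene changed direction in any fit. The constant direction is no separate support, because the groups did not overlap for 804 of the 806.

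**Figure D1:**
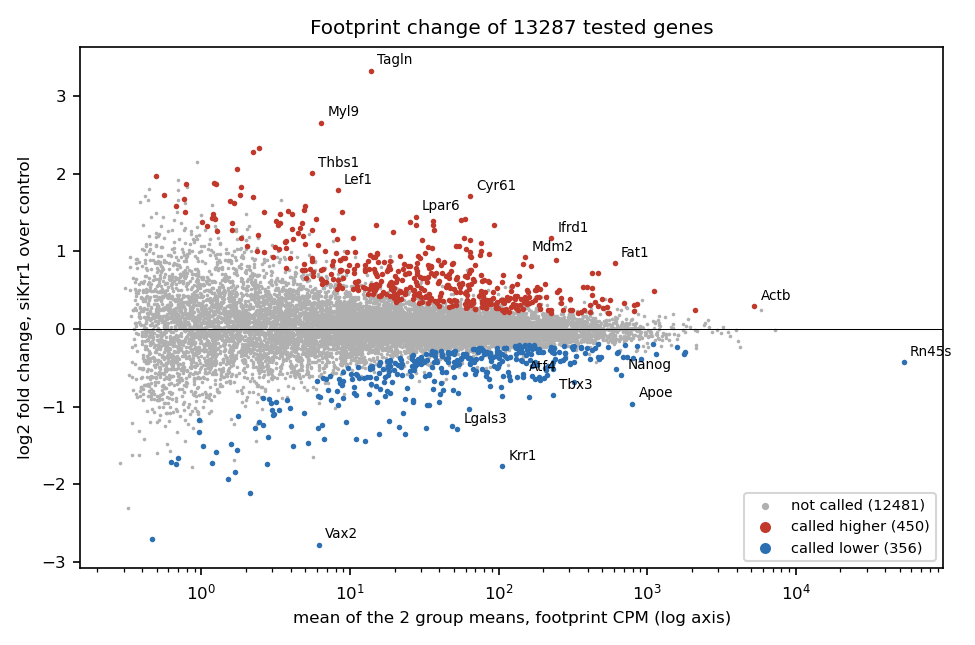
Log2 fold change in footprints (siKrr1 over control) against the mean footprint CPM (log axis) for each of the 13287 tested genes, with the 450 genes called higher in red, the 356 called lower in blue and the rest in grey. The far points include Tagln and Myl9 at the top and Vax2 and Krr1 at the bottom.

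Measured as a shift in footprint CPM, the protein-coding genes that rose went from a summed mean of 35980 CPM in controls to 48620 CPM after knockdown (437 genes), and those that fell went from 51170 to 39220 CPM (349 genes). The direction of both sums follows from how the genes were selected. The largest single gain was in Actb, cytoplasmic beta-actin, which was at 4638, 4770.0 and 4821 CPM in the controls and 5991, 5548 and 5901 CPM after knockdown (log2 fold change 0.29 ± 0.051, edgeR adjusted p = 0.00958). Other large gains, named here because of their size, were in Peg10, a retrotransposon-derived imprinted gene, Nedd4, a ubiquitin ligase, Fat1, a giant cadherin, Polr2a, the largest subunit of RNA polymerase II, and Sptan1, an alpha-spectrin of the membrane skeleton. Fat1 went from a mean of 432 to 777 CPM, Polr2a from 353 to 585 CPM and Sptan1 from 319.7 to 528 CPM. The largest loss among protein-coding genes was in Apoe, the lipid-carrying apolipoprotein E, with 954, 1086 and 1119 CPM in the controls and 489, 588 and 549 CPM after knockdown (log2 fold change -0.96 ± 0.078, edgeR adjusted p = 0.000378). Every knockdown library was below every control for Apoe, with siKrr1 A the lowest. Large losses were also seen in Slc2a3, a glucose transporter, Calr, a calcium-binding chaperone of the endoplasmic reticulum (ER), and Nanog, a pluripotency factor. The Apoe call held in all 6 fits with 1 library left out, and the Actb call in 3 of them. Over these fits the log2 fold change was -1.025 to -0.8936 for Apoe and 0.2685 to 0.3258 for Actb. The highest edgeR adjusted p of Actb was 0.0647.

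**Figure D2:**
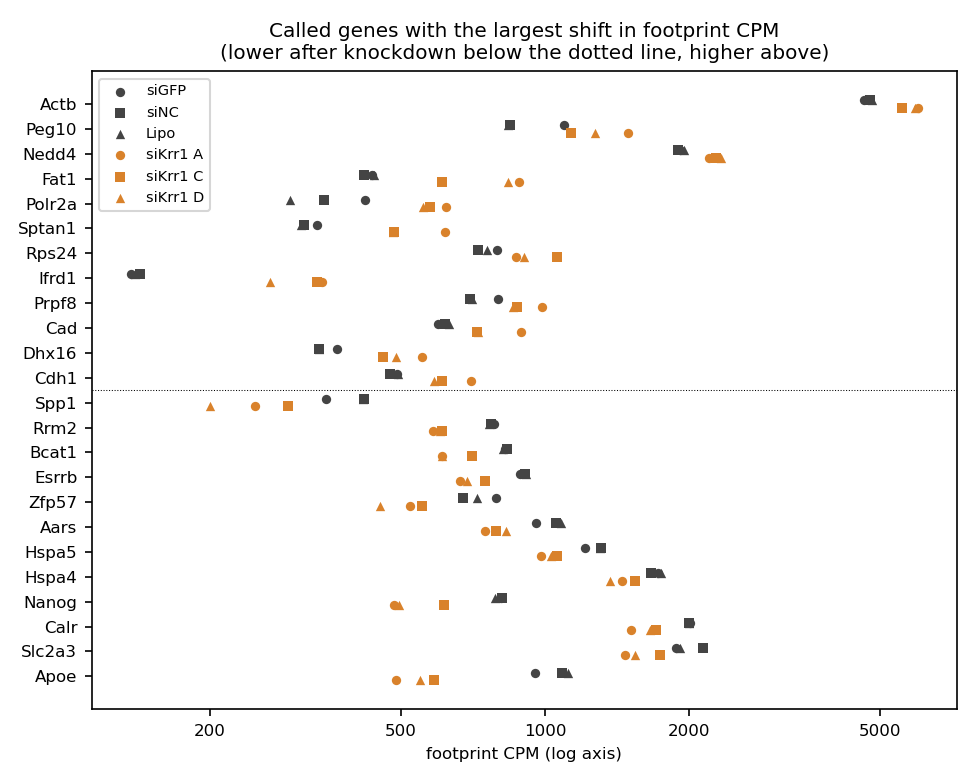
Footprint CPM (log axis) in each of the 6 libraries for the 12 called protein-coding genes with the largest gain in mean CPM (above the dotted line) and the 12 with the largest loss (below it). Grey symbols are the 3 controls and orange symbols the 3 knockdown libraries; the groups do not overlap for any of the 24 genes.

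Genes that build and run the ribosome were called about as often as genes at large. The gene lists used here and below were chosen with earlier results of these data known. Their shares of calls are therefore not independent of these data. Over 9 lists of translation machinery (378 tested genes), 6 genes rose and 13 fell, or 5.03% called against 6.07% of all tested genes. At an unadjusted p below 0.05 in edgeR, 23 were higher and 56 lower. Among 60 small-subunit processome and maturation factors, the median log2 fold change was 0.0022, and Krr1 was the only member that fell. Utp20, a large scaffold protein of the processome, was at 338, 327 and 333 CPM in the controls and 415, 369.8 and 379.5 CPM after knockdown (log2 fold change 0.22 ± 0.057, edgeR adjusted p = 0.0438). Fcf1, a PIN-domain protein of the same assembly, was at 54.1, 56.5 and 54.5 CPM in the controls and 67.2, 69.1 and 63.8 CPM after knockdown (log2 fold change 0.28 ± 0.065, edgeR adjusted p = 0.0331). In both genes all 3 knockdown libraries exceeded all 3 controls. Among 59 large-subunit assembly factors, Senp3, a SUMO protease that acts in 28S maturation, was the only call, with 296, 245 and 273 CPM in the controls and 197, 229 and 197 CPM after knockdown (log2 fold change -0.39 ± 0.081, edgeR adjusted p = 0.0198). None of 18 polymerase I transcription genes was called by edgeR (5 at an unadjusted p below 0.05, 1 called by DESeq2 and 0 by limma voom), and their most abundant members were Nolc1, a nucleolar chaperone, at log2 -0.11, and Rrn3, the initiation factor for polymerase I, at 0.041.

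Cytosolic ribosomal proteins showed 4 calls among 33 tested genes of the small and 52 of the large subunit, with medians of -0.019 for the small subunit and -0.093 for the large. Log2 fold changes were above 0 for 16 of the 33 and for 12 of the 52. Rps24 was at 793, 727 and 757 CPM in the controls and 872, 1058 and 906 CPM after knockdown (log2 fold change 0.32 ± 0.073, edgeR adjusted p = 0.0293), and Rps27l, a p53-inducible paralogue of Rps27, was at 198, 176 and 160.2 CPM in the controls and 231, 267 and 212 CPM after knockdown (log2 fold change 0.41 ± 0.094, edgeR adjusted p = 0.0291). Rps2 was at 89.6, 89.9 and 93.0 CPM in the controls and 75.6, 63.0 and 52.0 CPM after knockdown (log2 fold change -0.52 ± 0.11, edgeR adjusted p = 0.0215), and Rpl22l1, the paralogue of Rpl22, was at 156, 122 and 135 CPM in the controls and 104, 94.0 and 82.5 CPM after knockdown (log2 fold change -0.56 ± 0.10, edgeR adjusted p = 0.00986). The groups did not overlap for any of the 4 genes, as for 804 of all 806 called genes. Ribosomal protein genes have many processed pseudogenes, and only uniquely aligned reads were counted, so single values in this family are uncertain. Of 78 mitochondrial ribosomal proteins 3 fell, or 3.85% called against 6.07% of all tested genes. They were Mrpl14 (log2 -0.40), Mrpl50 (-0.37) and Mrps7 (-0.24), and the list's median was -0.10. The list leaned lower beyond its calls, with 11 of the 78 above 0. At an unadjusted p below 0.05 in edgeR, 20 members were lower and 0 higher. Of all 13287 tested genes, 2984 had such a p in either direction.

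Initiation factors were called in both directions. Eif4g3, a paralogue of the cap-binding scaffold eIF4G, was at 38.3, 36.0 and 34.7 CPM in the controls and 56.1, 45.2 and 60.6 CPM after knockdown (log2 fold change 0.57 ± 0.10, edgeR adjusted p = 0.0106), and Eif5, which activates GTP hydrolysis by eIF2 at the start codon, was at 170.1, 143 and 169 CPM in the controls and 193, 236 and 214 CPM after knockdown (log2 fold change 0.41 ± 0.086, edgeR adjusted p = 0.0196). Eif3d, a subunit of eIF3, had a log2 fold change of -0.21 ± 0.05, and Eif4ebp1, an inhibitor of cap-dependent initiation, one of -0.23 ± 0.06. None of 19 elongation factors and other genes with terminal oligopyrimidine (TOP) mRNAs was called by edgeR, DESeq2 or limma voom, and 2 had an unadjusted p below 0.05 in edgeR. Eef2, the translocation factor, was at 2525, 2459.5 and 2457 CPM in the controls and 2773, 2769 and 2500.1 CPM after knockdown, and Gnb2l1 (Rack1), a scaffold on the small subunit, at 4088, 3846 and 3958 CPM in the controls and 4102, 4015 and 3664 CPM after knockdown. The groups overlapped for both genes. Of 23 cytosolic tRNA synthetases, 4 fell and none rose, or 17.4% called against 6.07% of all tested genes. Aars, which charges tRNA with alanine, was at 958, 1054 and 1080.0 CPM in the controls and 751, 789 and 828 CPM after knockdown (log2 fold change -0.38 ± 0.061, edgeR adjusted p = 0.00653), and Yars, Nars and Cars had log2 fold changes of -0.38, -0.36 and -0.23. Over the 19 calls in the translation machinery, 6, 4 and 1 remained without siGFP, siNC and Lipo in turn, 16, 17 and 13 without siKrr1 A, C and D, and 1 in all 6 of these fits; the call that held throughout was Krr1. The calls of Cars, Eif3d, Eif4ebp1 and Mrps7 also ended when libraries were scaled by their totals alone.

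The p53 target list held the largest share of rising genes among the 33 lists. Of 52 tested members 25 rose and none fell, 48.1% called against 6.07% of all genes, and the median log2 fold change was 0.59 against 0.0067. Cdkn1a, the p21 inhibitor of cyclin-dependent kinases, was at 27.4, 25.4 and 24.4 CPM in the controls and 56.7, 31.4 and 46.3 CPM after knockdown (log2 fold change 0.80 ± 0.17, edgeR adjusted p = 0.0203). Mdm2, the ubiquitin ligase that limits p53, was at 110.4, 103 and 98.5 CPM in the controls and 256, 148 and 189.9 CPM after knockdown (log2 fold change 0.93 ± 0.15, edgeR adjusted p = 0.00705). Phlda3, a repressor of Akt, was at 42.9, 39.8 and 37.2 CPM in the controls and 114, 69.4 and 82.9 CPM after knockdown (log2 fold change 1.15 ± 0.15, edgeR adjusted p = 0.00255). In all 3 genes the order of the knockdown libraries was A, then D, then C, and C still exceeded every control.

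Further p53 targets rose across several functions. Tnfrsf10b, a death receptor, had a log2 fold change of 0.71 ± 0.095, and Zmat3, an RNA-binding protein, one of 0.63 ± 0.08. Among BH3-only inducers of cell death, Pmaip1 (Noxa) was at 1.15 (0.75 without siKrr1 A) and Bbc3 (Puma) at 0.87, and Apaf1, the core of the apoptosome, was at 0.67. Plk2, a stress-responsive kinase, was at 62.1, 50.7 and 45.0 CPM in the controls and 170.1, 91.8 and 136 CPM after knockdown (log2 fold change 1.33 ± 0.19, edgeR adjusted p = 0.00350). Sesn2, a sensor that restrains mTORC1, Slc19a2, a thiamine transporter, and Cdc42bpg, a kinase of the actin cytoskeleton, rose by 0.38, 0.69 and 0.78 on the log2 scale. Bax, an effector of mitochondrial permeabilisation, was at 0.062 ± 0.074 and did not pass the test (edgeR adjusted p = 0.683). Footprints on Trp53 itself were at 654, 588 and 604 CPM in the controls and 833, 699 and 653 CPM after knockdown (log2 fold change 0.24 ± 0.083, edgeR adjusted p = 0.112). The groups overlapped for Trp53, and of the alternatives run, only the fit without a low-count filter called it (edgeR adjusted p = 0.0242). The list's share of all footprint counts was 0.338%, 0.318% and 0.312% in the controls and 0.509%, 0.388% and 0.425% after knockdown. Of the 25 calls, 14, 12 and 9 remained without siGFP, siNC and Lipo in turn, 24, 25 and 21 without siKrr1 A, C and D, and 8 in all 6 of these fits; Phlda3, Plk2, Tnfrsf10b, Zmat3, Slc19a2, Cdc42bpg and Eda2r were among the latter. Cdkn1a was called in 2 of the 6 fits and Mdm2 in 5, each with its highest edgeR adjusted p without Lipo (0.107 and 0.0558). By DESeq2, 27 members were called higher and 1 lower.

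To show sequence context for members of this list that rose, the 250 bases before 1 start of each gene, the first listed where a gene had several, were searched for a single p53 half-site on both strands (promoter sequences from RefSeq, build GRCm38.p6; 41 of 52 list members and 10462 of 13287 tested genes had one). A half-site was present in 10 of 41 list members (24.4%), in 3 of the 19 that rose (15.8%), in 7 of the 22 that did not (31.8%), and in 6.06% of tested genes. The 3 promoters of rising genes with a match are printed here in the direction of the gene, with the half-site in capitals. They lie at chr17:29090881-29090962 on the plus strand for Cdkn1a, chr10:117710910-117710969 on the minus strand for Mdm2 and chr13:96519384-96519437 on the minus strand for Polk, a translesion DNA polymerase whose footprints changed by log2 0.75 ± 0.14. The start of Polk that was searched lies 23392 bases inside the annotated gene. With the farthest upstream start of each gene, a search chosen after seeing the data, Polk had no half-site, and 2 of the 19 members that rose (10.5%) and 9 of all 41 (22.0%) had one.
Cdkn1a: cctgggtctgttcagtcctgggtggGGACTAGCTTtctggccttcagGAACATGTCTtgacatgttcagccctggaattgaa
Mdm2: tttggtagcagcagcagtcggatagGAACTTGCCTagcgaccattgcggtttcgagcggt
Polk: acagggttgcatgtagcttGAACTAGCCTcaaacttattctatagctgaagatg
The Cdkn1a window held 2 half-sites and the other windows held 1 each. A match is a description of these letters and not evidence of binding.

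Genes of the amino acid response driven by ATF4, a transcription factor whose own translation is controlled through upstream reading frames, moved the other way. Of 42 tested members 18 fell and 3 rose, and the median log2 fold change was -0.31. The called share was 50%, against 6.07% of all tested genes. Atf4 itself was at 170.1, 183 and 175 CPM in the controls and 97.0, 123 and 122 CPM after knockdown (log2 fold change -0.62 ± 0.086, edgeR adjusted p = 0.00346), and every knockdown library was below every control. Counts per gene symbol do not separate footprints on upstream reading frames from those on the coding sequence, so synthesis of ATF4 was not measured. The RNA log2 fold change of Atf4 was -0.43. Among enzymes of serine and one-carbon metabolism, Psat1 was at 323, 364 and 366 CPM in the controls and 261, 248 and 261 CPM after knockdown (log2 fold change -0.45 ± 0.061, edgeR adjusted p = 0.00323) and Mthfd2 at 227, 248 and 247 CPM in the controls and 153, 182 and 176 CPM after knockdown (log2 fold change -0.50 ± 0.071, edgeR adjusted p = 0.00400). Phgdh, which catalyses the first step of serine synthesis, had a log2 fold change of -0.51, and Shmt2, the mitochondrial serine hydroxymethyltransferase, one of -0.31. Chac1, which degrades glutathione, Pck2, the mitochondrial phosphoenolpyruvate carboxykinase, and Trib3, a pseudokinase that feeds back on ATF4, had log2 fold changes of -0.83, -0.78 and -0.49.

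Called amino acid transporters of the list included both directions. Slc7a5, the large neutral amino acid transporter, was at 492, 527 and 554 CPM in the controls and 388, 418 and 415 CPM after knockdown (log2 fold change -0.37 ± 0.06, edgeR adjusted p = 0.00705), and Slc7a1, a cationic amino acid transporter, at log2 -0.46. Slc38a2, a sodium-coupled neutral amino acid transporter, was instead higher, at log2 0.24 ± 0.057. The other members that rose were Sesn2 (log2 0.38), which is also in the p53 list, and Gadd45a (0.48), a stress-induced growth arrest gene that p53 also regulates. The list took 0.626%, 0.668% and 0.671% in the controls and 0.539%, 0.575% and 0.575% after knockdown of footprint counts. Over its 21 calls, 15, 7 and 5 remained without siGFP, siNC and Lipo in turn, 19, 20 and 17 without siKrr1 A, C and D, and 4 in all 6 of these fits; the last were Atf4, Psat1, Mthfd2 and Herpud1, an ER-associated degradation factor with a log2 fold change of -0.67 ± 0.082.

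The 4 calls in the 2 chaperone lists (8.51% of 47 genes, against 6.07% of all tested genes) were falls. Of 23 genes of the unfolded protein response 3 fell and none rose. Hspa5 (BiP), the main ER Hsp70, was at 1211, 1309 and 1301 CPM in the controls and 982, 1059 and 1029.8 CPM after knockdown (log2 fold change -0.32 ± 0.055, edgeR adjusted p = 0.00908), Calr at 2004, 2000.5 and 1996 CPM in the controls and 1515, 1701 and 1654 CPM after knockdown (log2 fold change -0.30 ± 0.055, edgeR adjusted p = 0.0110), and Manf, a secreted ER stress protein, had a log2 fold change of -0.24 ± 0.061. The groups did not overlap for Hspa5 or Calr, and the list's median was -0.036. Among 24 cytosolic heat shock and chaperonin genes, Hspa4, an Hsp110-type exchange factor, was the only call (log2 fold change -0.24 ± 0.057, edgeR adjusted p = 0.0336). Of these 4 calls, 1, 0 and 0 remained without siGFP, siNC and Lipo in turn, 3, 4 and 2 without siKrr1 A, C and D, and 0 in all 6 of these fits, and the call of Manf ended with library totals as the scaling.

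Footprints fell on many naive pluripotency factors but were not called on Pou5f1 or Sox2, which form the core of the network. Of 41 tested genes of naive and core pluripotency 14 fell and 2 rose, with a median log2 fold change of -0.14. The called share was 39%, against 6.07% of all tested genes. Tbx3, a T-box transcription factor that supports self-renewal, was at 283, 299.6 and 313 CPM in the controls and 149, 195 and 152 CPM after knockdown (log2 fold change -0.85 ± 0.095, edgeR adjusted p = 0.00134). Klf4 was at 228, 202 and 218 CPM in the controls and 136, 147 and 133 CPM after knockdown (log2 fold change -0.64 ± 0.064, edgeR adjusted p = 0.000818), and Nanog at 809, 814 and 788 CPM in the controls and 484, 615 and 495 CPM after knockdown (log2 fold change -0.60 ± 0.082, edgeR adjusted p = 0.00335). For all 3 factors the groups were separate, with siKrr1 C the highest of the knockdown libraries. In bulk libraries, fewer cells that express a gene and less expression in each cell cannot be told apart.

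Further members of the naive network fell less than Tbx3. Esrrb, an orphan nuclear receptor, had a log2 fold change of -0.37 ± 0.057, and the transcription factors Tfcp2l1 and Klf2 had -0.59 ± 0.10 and -0.47 ± 0.074. Tcl1, an Akt co-activator, was at -0.56, Prdm14, a repressor of primed genes, at -0.45, and Fgf4, the growth factor that drives exit from the naive state, at -0.45. Zfp57, which protects methylation at imprinted regions, was at 789, 676 and 720.3 CPM in the controls and 522, 554 and 453 CPM after knockdown (log2 fold change -0.51 ± 0.08, edgeR adjusted p = 0.00595). Pou5f1 (Oct4) was at 1346, 1289 and 1372 CPM in the controls and 1157, 1220.3 and 1070.2 CPM after knockdown (log2 fold change -0.22 ± 0.059, edgeR adjusted p = 0.0558). Its groups did not overlap, as for 27.9% of all tested genes. Pou5f1 passed the threshold with upper-quartile scaling (edgeR adjusted p = 0.04998), a 5 CPM minimum (0.0495), no filter (0.0131), without siKrr1 C (0.0200), in DESeq2 (0.0259) and in limma voom (0.0427). Sox2 was at 476, 529 and 515 CPM in the controls and 567, 538 and 529 CPM after knockdown (log2 fold change 0.10 ± 0.057, edgeR adjusted p = 0.319), with the lowest value in siGFP. The 2 members that rose were Dppa4 (log2 0.36), a chromatin-associated stem cell marker, and Fbxo15 (0.50), an F-box protein. The list's share of footprint counts was 1.86%, 1.83% and 1.88% in the controls and 1.69%, 1.71% and 1.55% after knockdown. Of the 16 calls, 10, 11 and 5 remained without siGFP, siNC and Lipo in turn, 14, 14 and 12 without siKrr1 A, C and D, and 5 in all 6 of these fits; these were Nanog, Klf4, Tbx3, Tcl1 and Zfp57.

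Genes of the formative and primed epiblast, the states that follow naive pluripotency, were called more often higher than lower. Of 16 tested members 5 rose and 2 fell, 43.8% called against 6.07% of all tested genes, with a median of 0.20. Otx2, a homeodomain factor of the transition, was at 13.8, 15.1 and 13.2 CPM in the controls and 48.2, 30.8 and 30.7 CPM after knockdown (log2 fold change 1.38 ± 0.16, edgeR adjusted p = 0.00173). Lef1, a nuclear effector of Wnt signalling, was at 4.63, 4.14 and 2.37 CPM in the controls and 16.0, 8.92 and 13.6 CPM after knockdown (log2 fold change 1.79 ± 0.26, edgeR adjusted p = 0.00400). In both genes every knockdown library exceeded every control, with siKrr1 A the highest. Dnmt3a, a de novo DNA methyltransferase, Cdh2 (N-cadherin) and Sox4 had log2 fold changes of 0.37, 0.83 and 0.61. Fgf15, a growth factor of the epiblast, and Sox3, a SoxB1 transcription factor, fell instead, with log2 fold changes of -0.78 and -0.49. The other 9 members were not called. Of the 7 calls, 2, 2 and 2 remained without siGFP, siNC and Lipo in turn, 7, 7 and 3 without siKrr1 A, C and D, and 2 in all 6 of these fits, namely Otx2 and Lef1.

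**Figure D3:**
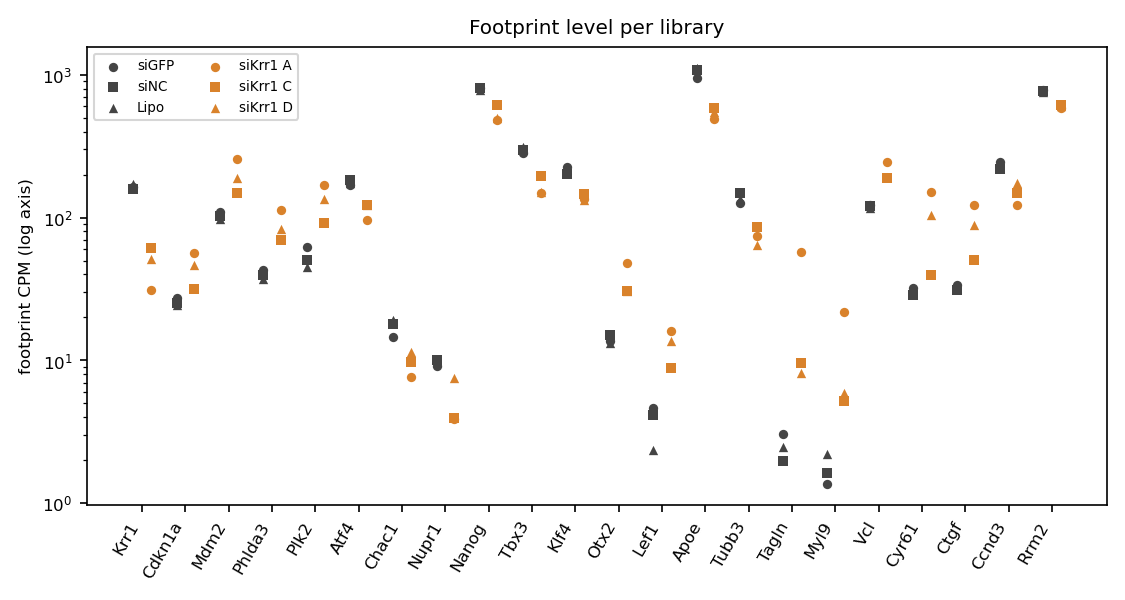
Footprint CPM (log axis) in each of the 6 libraries for Krr1 and 21 genes of the p53, ATF4, pluripotency, lineage, contractile, YAP and cell cycle lists. Grey symbols are the controls and orange symbols the knockdown libraries; siKrr1 A is the highest orange point for Cdkn1a, Mdm2, Phlda3, Tagln, Myl9 and Cyr61.

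Lineage markers moved in both directions without a common direction for any germ layer. Over 6 lists of mesoderm, endoderm, neural, trophectoderm, fibroblast and haematopoietic markers (64 tested genes), 8 rose and 8 fell. That was 25% called, against 6.07% of all tested genes. The neural list had the highest share of the 6, with 50% of its 10 tested genes. Among neural genes, Tubb3, a neuronal beta-tubulin, was at 127, 148 and 136 CPM in the controls and 74.9, 85.7 and 64.8 CPM after knockdown (log2 fold change -0.87 ± 0.10, edgeR adjusted p = 0.00137), Islr2, an axon-guidance membrane protein, at 29.1, 32.2 and 29.7 CPM in the controls and 14.7, 14.0 and 9.41 CPM after knockdown (log2 fold change -1.27 ± 0.14, edgeR adjusted p = 0.00150), and Mapt (tau) at log2 -1.18 ± 0.26. The intermediate filament Nes (nestin) rose instead, with 19.1, 20.5 and 20.8 CPM in the controls and 46.4, 29.2 and 33.8 CPM after knockdown (log2 fold change 0.85 ± 0.15, edgeR adjusted p = 0.00832), and so did Neurod1, a neurogenic factor, at log2 1.27 ± 0.24. Kdr, the VEGF receptor of mesoderm and endothelium, was at 6.40, 3.39 and 4.20 CPM in the controls and 9.96, 8.38 and 20.8 CPM after knockdown (log2 fold change 1.51 ± 0.33, edgeR adjusted p = 0.0244). Leaving out siKrr1 D brought the log2 fold change of Kdr to 0.99. Eomes, a T-box factor of mesendoderm and trophoblast, fell, with a log2 fold change of -0.57. Sparc, an extracellular matrix glycoprotein, and Lamb1, a laminin chain, rose by 0.39 and 0.38 on the log2 scale, while Apoe, also in the endoderm list, fell as given above. In the fibroblast list the calls were Tagln, a gene of smooth muscle and stromal cells, and Col5a2, a fibrillar collagen chain, at 1.77, 1.26 and 1.35 CPM in the controls and 4.29, 2.26 and 3.59 CPM after knockdown (log2 fold change 1.22 ± 0.28, edgeR adjusted p = 0.0282).

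Trophectoderm regulators did not move together. Gata3 was low but higher after knockdown, at 0.363, 0.684 and 0.490 CPM in the controls and 2.17, 1.09 and 2.47 CPM after knockdown (log2 fold change 1.87 ± 0.39, edgeR adjusted p = 0.0189). Gata2 fell, with a log2 fold change of -0.79, and so did Tead4, the TEAD factor that specifies trophectoderm, with -0.55. Of the 16 lineage calls, 4, 4 and 3 remained without siGFP, siNC and Lipo in turn, 13, 16 and 9 without siKrr1 A, C and D, and 3 in all 6 of these fits: Apoe, Tubb3 and Islr2. The calls of Tead4 and Cd68, a lysosomal protein of macrophages, ended with library totals or a minimum of 5 CPM. Of 8 defining fibroblast or feeder markers, 5 were under 1 CPM in every library and Postn was at 0, with a summed level of 16.6 to 19.4 CPM in controls and 11.5 to 18.4 CPM after knockdown. Of 6 haematopoietic markers, 5 were under 1 CPM, with Lyz2 and Hba-a1 at 0. The whole list of 18 fibroblast and feeder markers took 0.0658%, 0.0645% and 0.0648% in the controls and 0.0868%, 0.0541% and 0.0828% after knockdown of footprint counts, and that of 14 haematopoietic markers 0.0271%, 0.0255% and 0.0255% in the controls and 0.0205%, 0.0286% and 0.0323% after knockdown. Most of the first was Vim (vimentin), a filament protein of many cell types, at 602, 591 and 598 CPM in the controls and 755, 477 and 743 CPM after knockdown (log2 fold change 0.14 ± 0.14, edgeR adjusted p = 0.595). Most of the second was Laptm5, a lysosomal protein, at 253, 235 and 231 CPM in the controls and 191, 264 and 303 CPM after knockdown (log2 fold change 0.077 ± 0.13, edgeR adjusted p = 0.777). Neither gene was called, and the part of such cells in the results was not tested. The 8 embryonic stem cell markers were all detected and summed to 6033 to 6117 CPM in controls and 4787 to 5504 CPM after knockdown.

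The 2 called genes with the highest log2 fold change, Tagln and Myl9, encode parts of the actin cytoskeleton. Of 28 tested contractile genes and targets of serum response factor (SRF), 11 rose and 1 fell, with a median log2 fold change of 0.48. The called share was 42.9%, against 6.07% of all tested genes. Tagln (transgelin), a smooth-muscle actin-binding protein, was at 3.04, 1.98 and 2.49 CPM in the controls and 57.7, 9.68 and 8.13 CPM after knockdown (log2 fold change 3.33 ± 0.70, edgeR adjusted p = 0.0200), and Myl9, a regulatory myosin light chain, at 1.36, 1.62 and 2.20 CPM in the controls and 22.0, 5.24 and 5.96 CPM after knockdown (log2 fold change 2.66 ± 0.52, edgeR adjusted p = 0.0146). For both genes all knockdown libraries were above all controls, but siKrr1 A stood far above the other knockdown libraries, and without it the log2 fold changes were 1.83 for Tagln and 1.69 for Myl9. Vcl (vinculin), a focal adhesion protein, was at 122, 121 and 116 CPM in the controls and 246, 189.6 and 193 CPM after knockdown (log2 fold change 0.81 ± 0.092, edgeR adjusted p = 0.00150). Cnn2 (calponin), Zyx (zyxin) and Tpm1 (tropomyosin) had log2 fold changes of 1.34 ± 0.22, 1.06 ± 0.16 and 0.97 ± 0.22, and Tpm1 was at 0.56 without siKrr1 A and was not called by DESeq2 (adjusted p = 0.0732). Flna, Flnc and Myh9, filamins and non-muscle myosin, were higher by 0.43, 0.62 and 0.29 on the log2 scale (edgeR adjusted p = 0.0458, 0.0458 and 0.0479). Each of these 3 calls held in only 1 of the 6 fits with 1 library left out, and none held with a 5 CPM minimum. The call of Myh9 also ended with RLE scaling and with library sizes without Rn45s. The gene that fell was Tagln2, the transgelin paralogue most abundant in these cells, at 482, 459.9 and 465 CPM in the controls and 345, 354 and 377 CPM after knockdown (log2 fold change -0.39 ± 0.054, edgeR adjusted p = 0.00352). Footprints on Srf itself were not called (log2 0.17 ± 0.12, edgeR adjusted p = 0.439). Of the 12 calls, 4, 4 and 4 remained without siGFP, siNC and Lipo in turn, 8, 11 and 9 without siKrr1 A, C and D, and 4 in all 6 of these fits; these were Vcl, Zyx, Cnn2 and Tagln2. In limma voom, 5 members of the list were called higher against 11 in edgeR, and Tagln (adjusted p = 0.118), Myl9 (0.0629), Flna (0.0554), Flnc (0.0654) and Myh9 (0.0507) missed the threshold.

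Targets of the co-activator YAP and secreted matricellular genes showed 7 rises and no fall among 23 tested, with a median of 0.40. The called share was 30.4%, against 6.07% of all tested genes. Ctgf was at 33.9, 31.1 and 32.3 CPM in the controls and 122, 50.2 and 88.4 CPM after knockdown (log2 fold change 1.42 ± 0.24, edgeR adjusted p = 0.00781) and Cyr61 at 32.2, 28.7 and 29.4 CPM in the controls and 151, 39.7 and 104 CPM after knockdown (log2 fold change 1.71 ± 0.35, edgeR adjusted p = 0.0173), both encoding secreted CCN proteins. Thbs1 (thrombospondin), an adhesive glycoprotein, was at 2.86, 1.87 and 1.96 CPM in the controls and 12.7, 5.24 and 8.80 CPM after knockdown (log2 fold change 2.00 ± 0.30, edgeR adjusted p = 0.00544). The values of siKrr1 C lay closest to the controls for all 3 genes, and the groups did not overlap. Amotl2 and Ptpn14, junction-associated regulators of YAP, had log2 fold changes of 0.77 ± 0.15 and 0.83 ± 0.16, and Serpine2, a secreted protease inhibitor, one of 1.40 ± 0.31, which was 0.86 without siKrr1 A. Of the 7 calls, 2, 2 and 1 remained without siGFP, siNC and Lipo in turn, 6, 7 and 6 without siKrr1 A, C and D, and 1 in all 6 of these fits, the last being Thbs1. Cyr61 missed the threshold in limma voom (adjusted p = 0.0544).

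Motif matches in the same 250-base windows are shown for members of these 2 lists that rose, because the lists are defined by the factors that bind such motifs. The SRF motif searched was the CArG box, and it was present in 7 of the 23 SRF-list members with a sequence (30.4%), in 3 of the 9 that rose, in 4 of the 14 that did not, and in 1.14% of tested genes. The TEAD motif GGAATG, searched on both strands, was present in 6 of 15 YAP-list members (40.0%), in 3 of the 5 that rose, in 3 of the 10 that did not, and in 10.4% of tested genes. The TEAD motif was also present in 6 of the 23 SRF-list members (26.1%). The p53 half-site, found above in 24.4% of p53-list members, was present in 5 of the 23 SRF-list members (21.7%). It was present in 2 of the 15 YAP-list members (13.3%). The windows of rising genes with a match are at chr2:156775278-156775337 on the plus strand for Myl9, chr10:79988519-79988578 on the plus strand for Cnn2, chr14:20929148-20929205 on the plus strand for Vcl, chr3:145650058-145650113 on the minus strand for Cyr61, chr9:102717714-102717769 on the plus strand for Amotl2 and chr1:189728097-189728152 on the plus strand for Ptpn14. The start of Amotl2 that was searched lies 713 bases inside the annotated gene, and those of the other 5 at most 56 bases inside. Capitals mark the CArG box in the first 3 and GGAATG, read as CATTCC on the opposite strand, in the others.
Myl9: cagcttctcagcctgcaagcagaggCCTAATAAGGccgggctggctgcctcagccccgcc
Cnn2: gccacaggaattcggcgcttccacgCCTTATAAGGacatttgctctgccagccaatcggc
Vcl: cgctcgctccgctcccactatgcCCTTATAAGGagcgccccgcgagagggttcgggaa
Cyr61: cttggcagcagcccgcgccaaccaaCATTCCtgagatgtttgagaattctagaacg
Amotl2: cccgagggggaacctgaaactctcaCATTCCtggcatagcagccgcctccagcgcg
Ptpn14: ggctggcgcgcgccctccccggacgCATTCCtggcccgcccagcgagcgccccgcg
No test was made of these shares, and the matches describe the letters in these windows only.

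Calls among genes of DNA replication and S phase were all falls. Of 35 tested G1/S genes 8 fell and none rose, with a median of -0.14 and only 3 members above 0. The called share was 22.9%, against 6.07% of all tested genes. Rrm2, the ribonucleotide reductase subunit that supplies deoxynucleotides, was at 782, 774 and 763 CPM in the controls and 584, 611 and 606 CPM after knockdown (log2 fold change -0.36 ± 0.049, edgeR adjusted p = 0.00283). Ccnd3 (cyclin D3) was at 245, 219.6 and 222 CPM in the controls and 123, 149 and 174 CPM after knockdown (log2 fold change -0.62 ± 0.10, edgeR adjusted p = 0.00787), and Ccnd2 (cyclin D2) at 81.8, 94.2 and 79.2 CPM in the controls and 27.7, 67.2 and 30.4 CPM after knockdown (log2 fold change -1.03 ± 0.26, edgeR adjusted p = 0.0423). The 2 cyclins differed among knockdown libraries, with siKrr1 C nearest to the controls for Ccnd2, which DESeq2 did not call (adjusted p = 0.109). Without siKrr1 C, the log2 fold change of Ccnd2 was -1.55. Mcm4, a helicase subunit, Cdc6, an origin licensing factor, and Pola1, the catalytic subunit of polymerase alpha, fell, with log2 fold changes of -0.23, -0.34 and -0.26. Pcna, the replication clamp, was at log2 -0.15 ± 0.07 and did not pass the test (edgeR adjusted p = 0.222). The share of G2/M genes called, 6.06% of 33, was that of all tested genes (6.07%). Of these genes, Bub1, a spindle checkpoint kinase (log2 fold change 0.35 ± 0.063, edgeR adjusted p = 0.00986), and Cenpe, a kinetochore motor (log2 fold change 0.31 ± 0.061, edgeR adjusted p = 0.0165), rose. Of 58 replication-dependent histone genes 5 fell and none rose, 8.62% called against 6.07% of all tested genes, with a median of -0.078. Hist1h2bm was at 265, 291 and 267 CPM in the controls and 169.9, 198 and 208 CPM after knockdown (log2 fold change -0.51 ± 0.076, edgeR adjusted p = 0.00475), but histone genes are near-identical copies, and values of single copies are uncertain. Over the 15 calls of these 3 lists, 4, 3 and 4 remained without siGFP, siNC and Lipo in turn, 13, 13 and 10 without siKrr1 A, C and D, and 2 in all 6 of these fits, namely Rrm2 and Hist1h2bm. The calls of Hist1h2aa and Hist1h2bj also ended with library totals, limma voom or the 5 CPM minimum.

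Over 7 lists of housekeeping, metabolic and response genes, 9 of 220 tested members were called, 4.09% against 6.07% of all tested genes. None of 39 proteasome subunits and none of 73 nuclear-encoded respiratory chain subunits was called by edgeR, with medians of -0.04 and -0.05. At an unadjusted p below 0.05 there were 5 and 14, DESeq2 called 0 and 2, and limma voom called none of either list. Atp5b, the catalytic subunit of ATP synthase, was at 3146, 3179 and 3199 CPM in the controls and 3268, 2821 and 3124 CPM after knockdown, and Psmb4, a proteasome core subunit, at 704, 667 and 685 CPM in the controls and 674, 603 and 596 CPM after knockdown. Of 24 glycolytic genes Slc2a3 fell, with 1879.6, 2138 and 1909 CPM in the controls and 1472, 1738 and 1544 CPM after knockdown (log2 fold change -0.32 ± 0.072, edgeR adjusted p = 0.0282), and of 25 cholesterol synthesis genes Sc4mol, a sterol oxidase, fell, with a log2 fold change of -0.29. In the NRF2 list, 3 of 23 members fell. Nqo1, a quinone reductase, was at 210.1, 208 and 203 CPM in the controls and 90.6, 137 and 111 CPM after knockdown (log2 fold change -0.88 ± 0.12, edgeR adjusted p = 0.00273), Cbr3, a carbonyl reductase, at 45.6, 41.0 and 45.0 CPM in the controls and 17.4, 28.2 and 20.9 CPM after knockdown (log2 fold change -0.98 ± 0.14, edgeR adjusted p = 0.00400), and Nfe2l2, which encodes NRF2, at log2 -0.24 ± 0.06. Nqo1 and Cbr3 were each lower in every knockdown library than in any control, with siKrr1 A the lowest. Of 17 interferon response genes, Bst2 (tetherin) rose (log2 fold change 0.62 ± 0.086, edgeR adjusted p = 0.00350) and Xaf1, a pro-apoptotic factor, fell (log2 fold change -1.44 ± 0.22, edgeR adjusted p = 0.00558). In the Myc list (19 genes), Myc fell, with 375, 332 and 335 CPM in the controls and 287, 289.6 and 294 CPM after knockdown (log2 fold change -0.26 ± 0.059, edgeR adjusted p = 0.0282), and Cad, the enzyme that starts pyrimidine synthesis, rose, with 599, 619 and 632 CPM in the controls and 892, 722 and 725 CPM after knockdown (log2 fold change 0.34 ± 0.078, edgeR adjusted p = 0.0303). Over the 9 calls in these 7 lists, 4, 4 and 4 remained without siGFP, siNC and Lipo in turn, 7, 9 and 6 without siKrr1 A, C and D, and 4 in all 6 of these fits: Nqo1, Cbr3, Bst2 and Xaf1. The calls of Nfe2l2 and Sc4mol ended with library totals as the scaling.

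**Figure D4:**
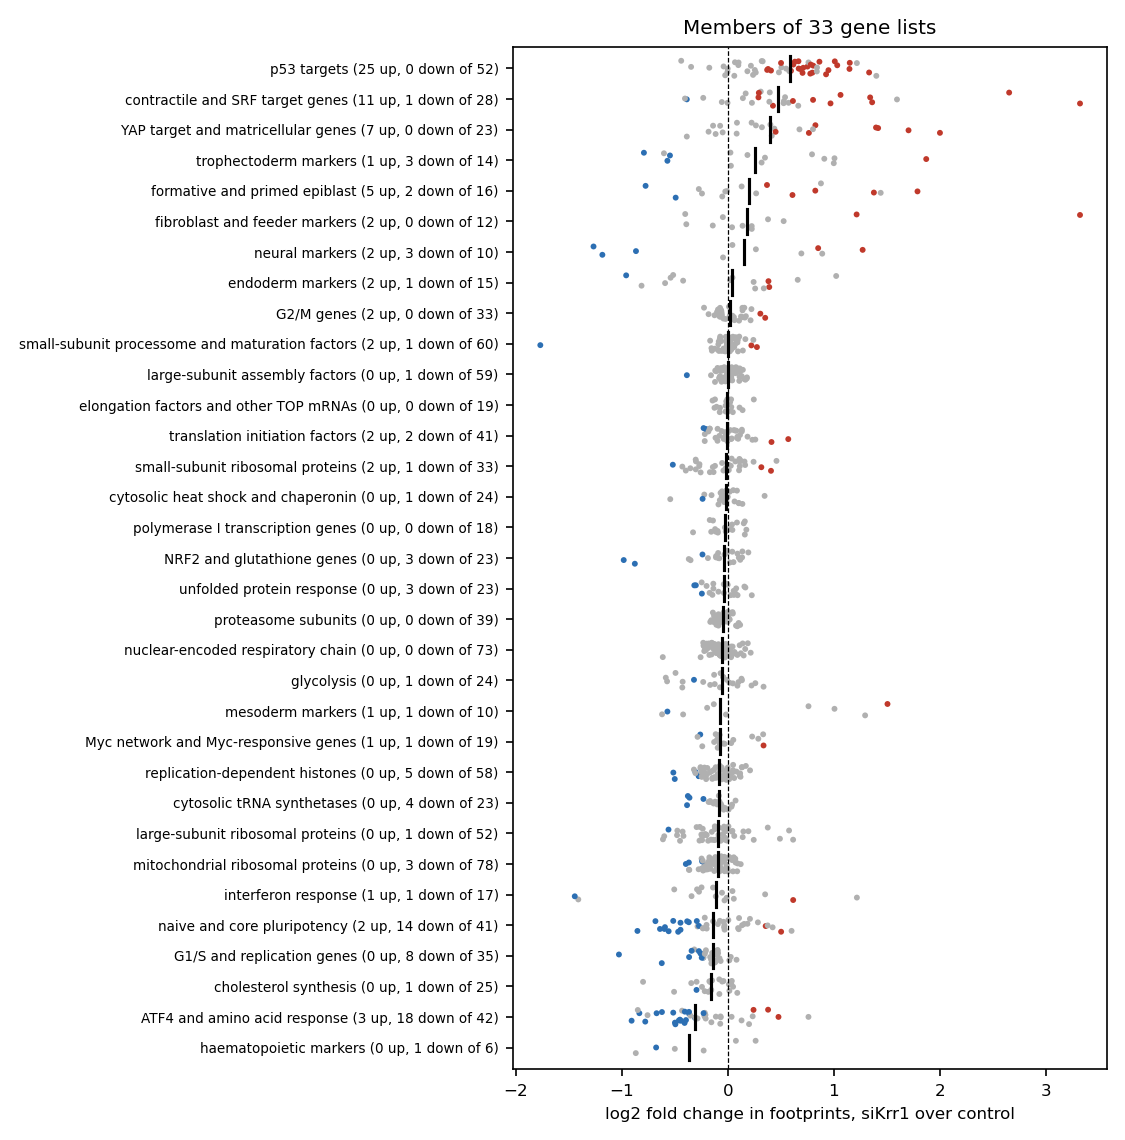
Log2 fold change in footprints of every tested member of the 33 gene lists, ordered by list median (black bar), with members called higher in red, called lower in blue and the rest in grey. The dashed line is the median of all tested genes; p53 targets have 25 red points and no blue point, and the ATF4 list has 18 blue and 3 red points.

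List medians in single libraries showed how far each knockdown library had moved. Taken as the median over members of log2(CPM + 0.5) minus the control mean, the p53 list was at 0.10, -0.024 and -0.064 in the controls and 0.79, 0.28 and 0.51 after knockdown. The contractile list was at 0.012, -0.015 and 0.022 in the controls and 0.62, 0.16 and 0.33 after knockdown. For both lists siKrr1 A had moved farthest and siKrr1 C least. The ATF4 list was at -0.079, 0.053 and 0.04 in the controls and -0.40, -0.29 and -0.30 after knockdown, with the 3 knockdown libraries closer together. The naive pluripotency list was at 0.0097, -0.024 and 0.026 in the controls and -0.12, -0.089 and -0.22 after knockdown, and there siKrr1 D had moved farthest. The YAP list in siKrr1 C lay within the range of the controls, at 0.04.

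**Figure D5:**
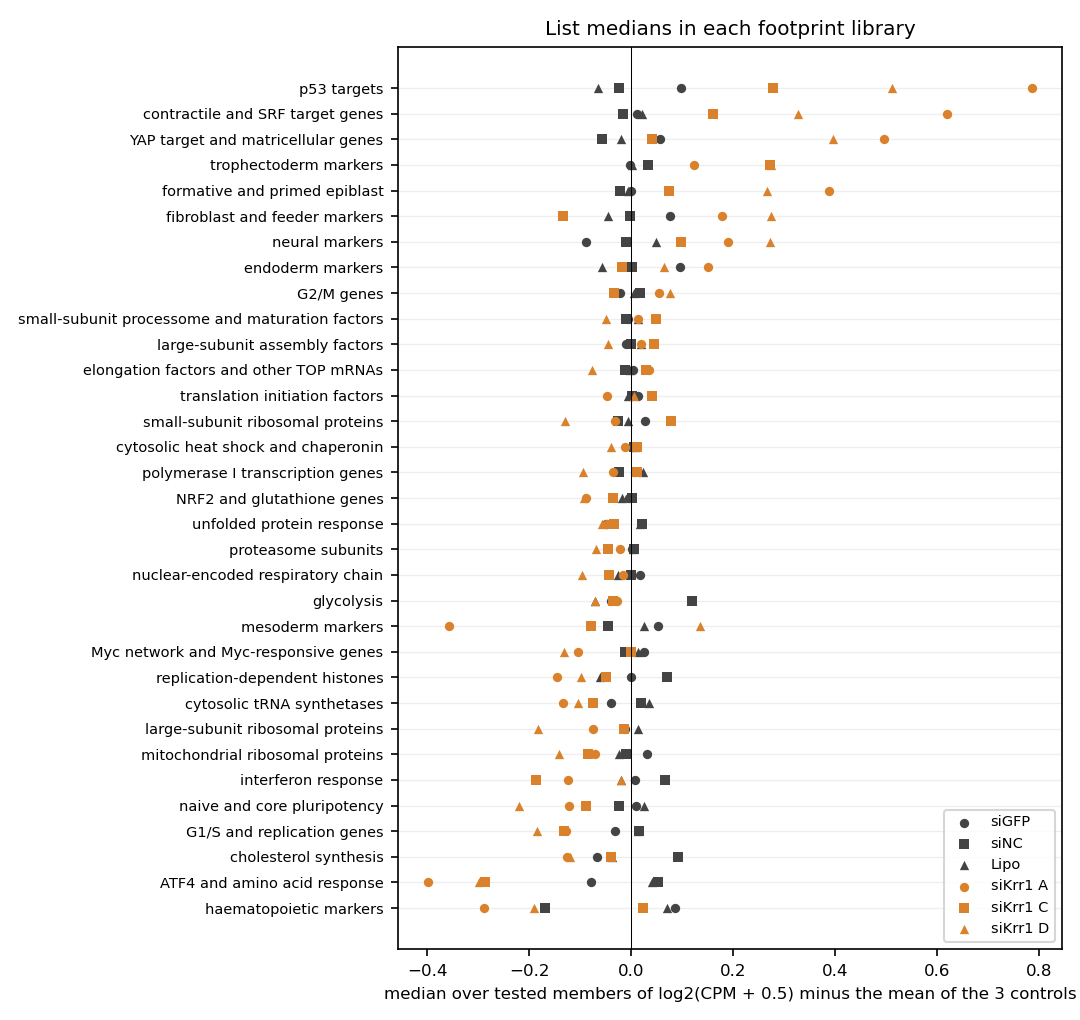
Median over tested members of log2(CPM + 0.5), minus the mean of the 3 controls, for each of the 33 gene lists (rows) in each of the 6 libraries. Grey symbols are controls and orange symbols knockdown libraries; in the p53 list the knockdown libraries stand at 0.28 to 0.79, and in the ATF4 list at -0.40 to -0.29.

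The lists held 7.71% of the tested genes and 18.2% of the calls. Because the lists were chosen with earlier results of these data known, that surplus may be partly built in. Of the 806 calls, 147 were list members and 659 were not. The rises outside the lists with the smallest p included Ifrd1, a transcriptional co-regulator, at 137, 143 and 139.6 CPM in the controls and 342, 335 and 267 CPM after knockdown (log2 fold change 1.17 ± 0.086, edgeR adjusted p = 0.000378). Lpar6, a lysophosphatidic acid receptor, was at 15.7, 14.0 and 14.9 CPM in the controls and 42.0, 30.9 and 48.6 CPM after knockdown (log2 fold change 1.45 ± 0.14, edgeR adjusted p = 0.000818). The 3 knockdown libraries stood well above every control in each of these genes. Lrp2 (megalin), an endocytic receptor, Enpp3, an ectonucleotidase, Crmp1, a microtubule regulator, Slc4a7, a bicarbonate transporter, and Usp28, a deubiquitinase, had log2 fold changes of 0.83, 0.83, 0.94, 0.72 and 0.51.

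Falls outside the lists were of similar size. Rnf10, a ubiquitin ligase that acts on small-subunit ribosomal proteins of stalled ribosomes, was at 145, 146 and 146 CPM in the controls and 93.1, 85.4 and 98.4 CPM after knockdown (log2 fold change -0.66 ± 0.064, edgeR adjusted p = 0.000818). Hes1, a repressor downstream of Notch, was at 139, 130.1 and 125 CPM in the controls and 70.8, 83.2 and 80.4 CPM after knockdown (log2 fold change -0.75 ± 0.074, edgeR adjusted p = 0.000818), and Vax2, an eye homeodomain factor, at 9.44, 13.0 and 9.95 CPM in the controls and 0.876, 2.56 and 1.29 CPM after knockdown (log2 fold change -2.78 ± 0.29, edgeR adjusted p = 0.00102). The groups were separate for all 3 genes, and the 3 controls of Rnf10 were nearly equal. Dlgap3, a postsynaptic scaffold, Atp2a3, a calcium pump of the ER, Nynrin, a retroelement-derived gene, and Setd1b, a histone methyltransferase, had log2 fold changes of -1.35, -1.27, -0.91 and -0.82. By the rule for named genes, the 15 largest falls were taken among called coding genes with no overlap and at least 5 CPM in the higher group. They also held Lgals3 (galectin-3), at 81.1, 68.3 and 74.7 CPM in the controls and 29.9, 38.9 and 23.2 CPM after knockdown (log2 fold change -1.29 ± 0.15, edgeR adjusted p = 0.00168), Myo1f, a myosin of immune cells, at -1.35, Padi4, which citrullinates histones, at -1.27, and Slc38a5, an amino acid transporter, at -1.41. Slc38a5 apart, the calls of all these genes outside the lists, higher and lower, held in all 6 fits with 1 library left out.

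Other rises among the 15 largest by the same rule were less even across libraries. Cd109, a co-receptor that dampens TGF-beta signalling, was at 2.00, 2.30 and 3.10 CPM in the controls and 12.6, 3.73 and 6.13 CPM after knockdown (log2 fold change 1.59 ± 0.38, edgeR adjusted p = 0.0341), a value of 1.00 was left without siKrr1 A, and limma voom gave an adjusted p of 0.0815. Anxa3 (annexin), a membrane-binding protein, was at 25.7, 17.8 and 16.8 CPM in the controls and 60.7, 33.7 and 63.3 CPM after knockdown (log2 fold change 1.39 ± 0.22, edgeR adjusted p = 0.00641), and Alox5, which starts leukotriene synthesis, at 2.40, 1.44 and 2.12 CPM in the controls and 8.86, 3.44 and 4.84 CPM after knockdown (log2 fold change 1.52 ± 0.34, edgeR adjusted p = 0.0246). Tinagl1, a matricellular protein, and Cpne2 (copine) had log2 fold changes of 1.54 ± 0.23 and 1.42 ± 0.19, and their calls held in all 6 fits with 1 library left out.

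The footprint changes were set against the RNA of the same lysates to ask whether ribosome density changed beyond the mRNA. In a model of all 12 libraries, 0 of 14236 genes had a footprint change that differed from the RNA change (edgeR adjusted p below 0.05), and 337 did at an unadjusted p below 0.05. This model did not use the pairing of libraries by lysate. The 337 genes were fewer than the share of 0.05 expected with no difference, so the fit was conservative. Its 0 calls do not show that ribosome density was unchanged. With the lysate as a block, 6 genes passed (Dync1h1, Mir1949, Polr2a, Rab6a, Snora7a and Zbtb7c), and 975 did at an unadjusted p below 0.05. Mir1949, a microRNA, and Snora7a, a small nucleolar RNA, are noncoding, so their counts do not report ribosome density. They were at 1.12 to 2.21 and 3.67 to 6.60 footprint CPM. Among the coding genes of the 6, Dync1h1, the heavy chain of cytoplasmic dynein, was at 101, 108 and 104 CPM in the controls and 179.8, 179.6 and 145 CPM after knockdown (footprint log2 fold change 0.69 ± 0.082, edgeR adjusted p = 0.00181), and its RNA log2 fold change was 0.30. On the log2 scale, Polr2a changed by 0.73 in footprints and 0.25 in RNA. Zbtb7c, a zinc-finger repressor, changed by -0.063 in footprints and -1.66 in RNA, and Rab6a, a Golgi GTPase, by -0.041 and 0.70. Zbtb7c RNA was low, at 8.47, 6.89 and 7.75 CPM in the controls and 2.22, 2.92 and 2.14 CPM after knockdown. Its footprints were at 62.0 to 99.8 CPM. Rab6a RNA was at 93.5, 77.5 and 80.2 CPM in the controls and 87.7, 146 and 173 CPM after knockdown. For Rab6a, siKrr1 A thus lay within the controls, and the RNA change was not called (edgeR adjusted p = 0.0613). None of the 6 genes passed without the block.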

How the data were processed

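Ribosome footprint and RNA libraries were made from the same lysates of transfected R1 cells, divided equally, per the labels' protocols. The authors deposited a table of raw counts per gene symbol for each kind of library. STAR, HTSeq and mm10 are named in the submitters' processing notes, with versions not given in the sources used here. The summary rows of the counter (reads on no gene, ambiguous or not unique) were dropped before library sizes were taken; reads on no gene were 57.5% to 63.3% of unique alignments.

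Groups were taken from the sample titles. The letters A, C and D of the knockdown columns do not match the numbers in the titles, so these columns were assigned to the knockdown group only. The 3 control and 3 knockdown footprint libraries were compared with edgeR 4.0.16 in R 4.3.3 (TMM factors, filterByExpr, glmQLFit and glmQLFTest, two-sided, Benjamini-Hochberg over all 13287 tested genes, called below 0.05). SE is the log2 fold change divided by the square root of F. CPM (counts per 1000000) use library totals multiplied by the TMM factors. A model of all 12 libraries tested footprint change against RNA change, without and with the lysate as a block. Lysates pair the libraries, per the labels' protocols. Deviations from the group mean correlated at 0.267 to 0.713 between paired columns over 6117 genes. The values were at most 0.0042 with the other lysates of the same group. Within a group these deviations cancel, so a positive correlation with the own lysate forces lower values with the others. The contrast is thus partly built in and is no test of the pairing. The test was also run on simulated counts, drawn with the same dispersion for every gene and no difference between libraries of a group. Such counts lack the spread seen among the real knockdown libraries, so that run does not vouch for the calls here.

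Named genes were Krr1, the 15 largest rises and falls among called protein-coding genes without overlap and with at least 5 CPM in the higher group, up to 5 called members of each list with the smallest adjusted p (2 most abundant where none was called), and 8 fixed genes; others were added after their values were seen. The members and the 33 gene lists were chosen with earlier results of these data known. Coordinates and promoters come from RefSeq (GRCm38.p6). Alternatives were RLE, upper-quartile and no scaling factors, other filters, protein-coding genes only, DESeq2 1.42.0, limma 3.58.1 voom, each library left out and, chosen after seeing the data, library sizes without Rn45s.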

Additional observations from a re-analysis of the deposited data

How the results depend on the processing

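The counts of calls rested on all 6 libraries. With each library left out in turn, rises ranged from 67 to 791 and falls from 64 to 546, against 450 and 356, with the lowest counts without Lipo and the highest without siKrr1 C. Without a low-count filter, which tests 18867 genes, 784 genes rose and 616 fell. The other settings stayed within 1.5 times: RLE gave 441 and 372, upper-quartile 437 and 371, library totals 579 and 285, the 5 CPM minimum 385 and 333, DESeq2 623 and 520, limma voom 387 and 363, protein-coding genes only 455 and 364, and library sizes without Rn45s, chosen after seeing the data, 438 and 378. No called gene changed direction under any setting, but groups without overlap, as for 804 of the 806 calls, leave little room for a change. For the difference between footprint and RNA change, the count was 0 in the unpaired fit, 6 with the replicate block (lysate), 2 without a filter, and 0 to 1 with each lysate left out; the cause was not tested. The footprint comparison itself has no pairing between control and knockdown libraries. Without siGFP, siNC and Lipo in turn, 243, 198 and 131 of the 806 calls remained, and 601, 754 and 470 without siKrr1 A, C and D; the cause was not tested. At 21615934 to 28911254 counts a library, 69 called genes were under 5 CPM in both groups and are the least precise.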
